A study of Mus musculus with 12 samples.

Results

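The genes described here are 10 antioxidant enzymes, subunits and transporters named as targets of the transcription factor NRF2 or as classic antioxidant enzymes: Slc7a11, Gclc, Gclm, Txnrd1, Srxn1, Nqo1, Hmox1, Sod1, Sod2 and Cat. They were chosen by name from a brain expression table of 56748 genes, all 10 were found once each, and all 10 passed the filter on low values that left 19571 genes for testing. NRF2, encoded by Nfe2l2, is held in the cytoplasm by KEAP1 and degraded there. Oxidants and electrophiles release it, and it then binds antioxidant response elements in DNA together with a small MAF protein. Its targets make glutathione, reduce thioredoxin, break down heme and quinones and supply NADPH, and in the brain they are best known from astrocytes and other glia. Superoxide dismutases and catalase remove superoxide and hydrogen peroxide, and their genes are regulated only in part by NRF2.

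The 12 brains came from adult C57BL/6 mice, an inbred laboratory strain, in 3 arms of 4 mice with 2 females and 2 males each. The LPS arm received lipopolysaccharide, a bacterial outer membrane component, by intraperitoneal injection at 0.5 mg/kg every day for 7 days. The LPS+DMA arm received the same LPS and also daily intraperitoneal N,N-dimethylacetamide (DMA), a solvent used as a drug carrier, at a dose not given in the sources used here, and the PBS arm received phosphate-buffered saline. Tissue was collected on day 7 and 1 messenger RNA library was made per mouse, and DMA without LPS was not analysed here. Levels are FPKM, a length-corrected read density adjusted for how deeply each library was sequenced. Changes are differences of log2(FPKM + 1), on which low genes appear to change less than they do.

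Depth, recovered from the deposited values, was 27.5 to 41.4 megareads per library. Summed markers of neurons stood at 1041 to 1349 FPKM in every library, so neuronal RNA was present in all of them. Markers of brain region, choroid plexus and blood did not stand level. Gabra6, a receptor subunit of cerebellar granule cells, was at 15.6 to 114 FPKM in PBS female 1, LPS female 1, LPS male 1 and LPS male 2, and nowhere above 0.170 FPKM among the remaining 8. Summed choroid plexus markers (13 genes) ran from 6.97 to 345 FPKM in PBS, from 191 to 1823 in LPS and from 5.44 to 435 in LPS+DMA, and summed red blood cell markers (7 genes) from 71.1 to 116, 243 to 946 and 29.1 to 297 FPKM. LPS female 2, the LPS library in which Gabra6 is listed at 0, also held far less ribosomal RNA, 0.0389% of its reads, than the other 11 libraries, at 2.88 to 9.79%. In LPS+DMA male 2, coding genes of 6841 bases or more lay 0.14 above the mean of the 12 libraries on the log2 scale and those of 2764 bases or fewer 0.22 below it, and this gap between long and short genes, 0.36, was the widest of the 12 libraries. The labels name brain tissue and no region. In RNA of tissue with many cell types, fewer cells of a type and less RNA per cell cannot be told apart.

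The promoters of the members are shown first, since an antioxidant response element is what NRF2 binds. Promoters from 250 bases before to 50 bases after the start were found in the RefSeq table (GRCm38.p6, another build than that of the expression table) for 8 of the 10 members. Hmox1 and Gclc had no promoter there and were not searched. The core of the element, TGACNNNGC on either strand, occurred in 4 of the 10 promoters of these 8 members. They were 1 promoter each of Gclm, Txnrd1, Sod1 and Srxn1, and the core occurred in 12.4% of the 32851 promoters in the table. The upstream stretch of Gclm (chr3:122245307-122245556, plus strand) and that of Txnrd1 (chr10:82858956-82859205, plus strand) are given 5′ to 3′ with the match, read on the opposite strand, in capitals:

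Gclm: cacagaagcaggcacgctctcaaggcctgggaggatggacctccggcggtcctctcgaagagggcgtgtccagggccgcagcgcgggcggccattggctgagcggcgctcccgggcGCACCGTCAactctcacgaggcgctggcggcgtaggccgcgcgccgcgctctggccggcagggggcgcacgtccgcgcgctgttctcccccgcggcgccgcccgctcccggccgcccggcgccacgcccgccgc

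Txnrd1: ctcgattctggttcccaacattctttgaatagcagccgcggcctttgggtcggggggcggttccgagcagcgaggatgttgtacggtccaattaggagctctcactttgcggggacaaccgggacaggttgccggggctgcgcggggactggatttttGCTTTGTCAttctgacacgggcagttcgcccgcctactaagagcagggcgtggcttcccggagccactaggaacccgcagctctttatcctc

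The matches of Sod1 (chr16:90220696-90220725, plus strand) and Srxn1 (chr2:152105542-152105571, plus strand, after the start) are given as windows of 30 bases, together with the windows of an AP-1 site, TGANTCA, which Srxn1 holds at 2 places before its start (chr2:152105412-152105441 and chr2:152105469-152105498) and which occurs in 7.81% of promoters. The AP-1 motif was chosen after the sequences had been seen, and neither of its matches in Srxn1 overlaps the match to TGACNNNGC. The near AP-1 match runs on as TGAGTCAGC, which differs from TGACNNNGC only in having G where the core has C. Wider forms of the element were not searched, so these letters do not separate an AP-1 site from such a form:

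Sod1: gccaaggtggGCGTGGTCAgactcaggcct

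Srxn1, element: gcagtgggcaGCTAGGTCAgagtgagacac

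Srxn1, AP-1, far: tcggagggccTGAGTCAccacgctgtgcgt

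Srxn1, AP-1, near: aaattcacccTGAGTCAgcggccgggcgcg

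Each match is a description of letters in this window, and no binding was measured.

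Sod1 and Srxn1 were the most abundant members, with means over the 12 libraries of 36.7 ± 4.85 and 35.1 ± 5.17 FPKM (SD, n = 12), and these neighbours did not differ beyond their spread. Sod2 followed at 20 ± 2.11, Cat at 16.9 ± 4.91, Gclc at 15.1 ± 1.88, Gclm at 11.5 ± 2.79 and Txnrd1 at 8.998 ± 1.08 FPKM, and the ranges of neighbours in this order overlapped. Nqo1 at 3.80 ± 1.56, Slc7a11 at 3.37 ± 1.04 and Hmox1 at 2.21 ± 0.648 FPKM were the lowest and again overlapped. Reads per member and library ran from 54 for Hmox1 to 8443 for Sod2. Sod2 had the smallest coefficient of variation over the 12 libraries, 10.6%, and Nqo1 the largest, 41.1%.

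**Figure D1:**
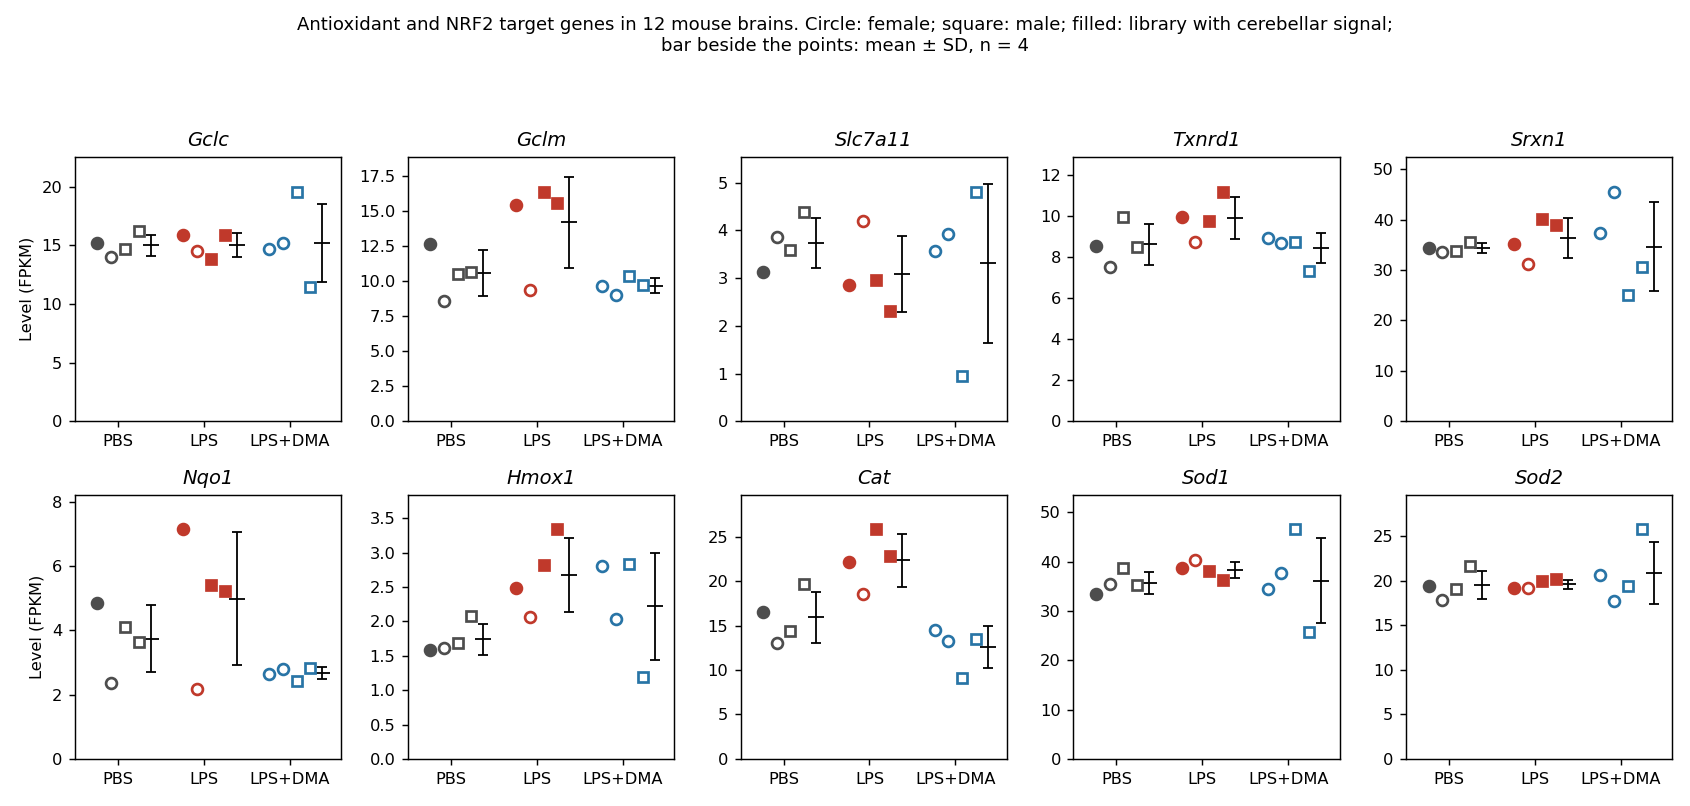
Level of each of the 10 genes in FPKM (y axes from 0) in each library of the PBS, LPS and LPS+DMA arms, with circles for females, squares for males, filled symbols for libraries with Gabra6 above 1 FPKM, and a bar for the mean ± SD (n = 4). The 4 LPS libraries of Cat (18.5 to 25.8 FPKM) sit above the 4 LPS+DMA libraries (9.12 to 14.5), and the filled symbols are the highest points of Gclm and Nqo1.

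Of the 10 members, Cat was the 1 that passed the threshold in any comparison. The threshold was a Benjamini-Hochberg adjusted p under 0.05 over all genes tested in limma. Cat was lower in LPS+DMA than in LPS, by 0.79 on the log2 scale. No member passed in LPS against PBS or in LPS+DMA against PBS. Gclm, Nqo1 and Txnrd1 passed in some of the alternative fits given below, and Cat did not pass in all of them. In LPS against PBS 0 of 10 members passed beside 0.0102% of all genes tested. There 3 members, Cat, Gclm and Hmox1, had an unadjusted p under 0.05, as did 11.0% of all genes, and voom on recovered reads called 0 members, with 2 at an unadjusted p under 0.05. The 2 arms overlapped for every member, while 6.89% of all genes had arms that did not. Of the members 9 had changes above 0 and Slc7a11 had one below, and the members' median change was 0.14 against -0.0093 over all genes tested.

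In LPS+DMA against LPS 1 of 10 members passed, where 9.67% of all genes tested passed and 3.88% passed in the lower direction, so the share among the members was near the background. An unadjusted p under 0.05 was found for 3 members, Cat, Gclm and Nqo1, and for 28.4% of all genes. Cat was also the 1 member whose arms did not overlap, as for 12.2% of all genes, 5.98% with LPS+DMA lower. Changes were below 0 for 9 members and above 0 for Sod2, with a median of -0.16 against 0.010 over all genes tested. Both comparisons contain the 4 LPS libraries, so their changes are not independent. In LPS+DMA against PBS 0 of 10 passed, again beside 0.0102% of all genes. No member there had an unadjusted p under 0.05, in limma or in voom, against 11.4% of all genes in limma, and none had arms that did not overlap, against 6.64% of all genes. The members' changes ran from -0.34 for Nqo1 to 0.20 for Hmox1, with a median of -0.025 against 0.00014 over all genes.

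**Figure D2:**
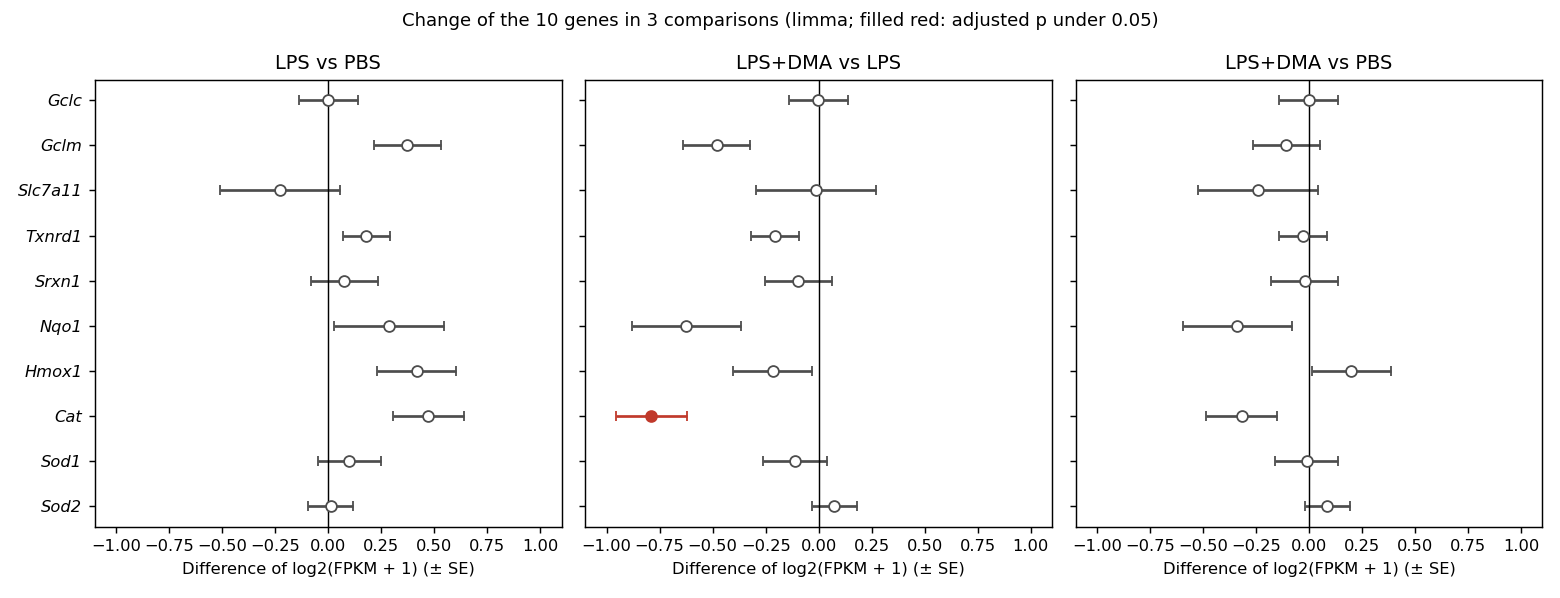
Change of each gene as the difference of log2(FPKM + 1) with its standard error (x axis) in each of the 3 comparisons, from 1 limma model over 12 libraries. Filled red marks an adjusted p under 0.05, which only Cat reached, at -0.79 in LPS+DMA against LPS.

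Cat encodes catalase, the peroxisomal enzyme that splits hydrogen peroxide into water and oxygen (ENSMUSG00000027187, chr2:103284194-103315505, minus strand, in the GRCm39 coordinates of the deposited table). Its level was 16.5, 13.01, 14.4 and 19.7 FPKM in PBS female 1, female 2, male 1 and male 2. In the same order it was 22.2, 18.5, 25.8 and 22.8 FPKM in LPS and 14.5, 13.2, 9.12 and 13.5 FPKM in LPS+DMA. Every LPS library thus lay above every LPS+DMA library, while PBS male 2 lay above LPS female 2. LPS+DMA male 1 was the lowest library of all.

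The LPS mean of Cat was 22.3 ± 2.99 FPKM and the LPS+DMA mean 12.6 ± 2.37 (SD, n = 4), a log2 change of -0.79 (SE 0.17, adjusted p = 0.0227). Against the PBS mean of 15.9 ± 2.89 FPKM, the LPS change was 0.47 (SE 0.17, adjusted p = 0.347) and the LPS+DMA change -0.32 (SE 0.17, adjusted p = 0.483). The call in LPS+DMA against LPS was lost without LPS female 1, LPS male 1 or LPS male 2 (adjusted p = 0.0799, 0.0855 and 0.0794). It was lost in the unfiltered fit (adjusted p = 0.0550) and in the fit of only these 2 arms (adjusted p = 0.0742). Most calls among all genes were also lost in those 2 fits and without LPS male 1, as given in the last section. The call of Cat was also lost with the forebrain minus cerebellum score as a covariate (change -0.59, adjusted p = 0.596) and with choroid plexus and red blood cell scores as covariates (-0.37, adjusted p = 0.977). No gene of all those tested passed in either fit with covariates, so the loss is not particular to Cat.

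Markers of other tissue also differed between the arms, and they matched Cat only in part library by library. LPS male 1, the highest library of Cat, also had the most summed red blood cell markers, 946 FPKM. LPS+DMA male 1, the lowest of Cat, had the least of both red blood cell (29.1 FPKM) and choroid plexus markers (5.44 FPKM). PBS male 2 had the highest Cat of its arm but the least of both markers there, 71.1 and 6.97 FPKM. All 13 choroid plexus genes and all 6 tested red blood cell genes had changes above 0 in LPS against PBS and below 0 in LPS+DMA against LPS. Of the choroid plexus genes 8 passed in LPS+DMA against LPS, and none of the red blood cell genes did. All 10 oligodendrocyte markers also had changes above 0 in LPS against PBS and below 0 in LPS+DMA against LPS, with 0 and 1 called. Their sum was highest in LPS male 1 (2232 FPKM) and lowest in LPS+DMA male 1 (528 FPKM), as was Cat. In PBS both were highest in male 2, while in LPS+DMA the sum was highest in male 2 and Cat in female 1. These markers were not a covariate in any fit. Of 10 microglia markers 9 had changes above 0 in the first comparison, with 0 called, and all 10 had changes below 0 in the second, with 7 called. Beside LPS female 2, the other LPS libraries had a cerebellar signal. Within the 8 libraries without one, LPS female 2 at 18.5 FPKM lay between the PBS values and above all LPS+DMA values, and the change from this 1 library to LPS+DMA was -0.52. The part of these markers in the Cat result was not tested beyond these fits.

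Slc7a11, Gclc and Gclm set the supply of glutathione, the main small thiol of cells. Slc7a11 is the cystine importer of system xc-, and glutamate-cysteine ligase, the rate-limiting enzyme of glutathione synthesis, consists of a catalytic subunit (Gclc) and a modifier subunit (Gclm). Gclm (ENSMUSG00000028124, chr3:122039206-122064381, plus strand, GRCm39), whose promoter holds an element match shown above, had the strongest split of the 3. In PBS female 1, female 2, male 1 and male 2 it stood at 12.7, 8.59, 10.5 and 10.6 FPKM. In the same order it stood at 15.4, 9.40, 16.4 and 15.6 FPKM in LPS and at 9.65, 9.01, 10.4 and 9.70 FPKM in LPS+DMA. The 4 libraries with a cerebellar signal were the 4 highest, and LPS female 2, without that signal, fell among the PBS and LPS+DMA values.

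The change of Gclm was 0.37 in LPS against PBS (SE 0.16, adjusted p = 0.422) and -0.48 in LPS+DMA against LPS (SE 0.16, adjusted p = 0.0761). Without LPS female 2 both passed, at 0.54 (adjusted p = 0.0451) and -0.64 (adjusted p = 0.00695). With equal library totals the change against LPS was -0.66 and passed (adjusted p = 0.0240). With the forebrain minus cerebellum score as a covariate it was -0.0048 (adjusted p = 0.995). Within the 8 libraries without a cerebellar signal Gclm ran from 8.59 to 10.6 FPKM, and LPS female 2, the single LPS library among them, stood at 9.40 FPKM beside 9.01 to 10.4 in LPS+DMA. A pseudogene, Gm6061, overlaps Gclm on the same strand and reached 5.65 FPKM, so reads of these 2 genes may be split between them.

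Gclc (ENSMUSG00000032350, chr9:77661817-77701767, plus strand) had nearly equal arm means, 15.0 ± 0.901 FPKM in the PBS mice, 15.0 ± 1.03 after LPS and 15.2 ± 3.33 with DMA added (SD, n = 4). Its changes were 0.00085 (SE 0.14, adjusted p = 1), -0.0028 (SE 0.14, adjusted p = 0.993) and -0.0019 (SE 0.14, adjusted p = 0.997) in the 3 comparisons. The 4 LPS+DMA mice spread more than the others, at 14.7, 15.2, 19.6 and 11.5 FPKM in female 1, female 2, male 1 and male 2, so both the highest and the lowest of the 12 libraries belonged to this arm. The ratio of Gclm to Gclc was 0.611 to 0.835 in PBS and 0.530 to 0.844 in LPS+DMA. In LPS it was 0.971, 0.649, 1.18 and 0.977, above both other arms in the 3 libraries with a cerebellar signal and within them in LPS female 2.

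Slc7a11 (ENSMUSG00000027737, chr3:49846975-50398063, minus strand) was at 3.13, 3.85, 3.58 and 4.38 FPKM in PBS female 1, female 2, male 1 and male 2. In the same order it was at 2.84, 4.20, 2.97 and 2.31 FPKM in LPS and at 3.56, 3.93, 0.941 and 4.81 FPKM in LPS+DMA. The arms overlapped, and LPS+DMA male 1 and male 2 were the lowest and the highest of all 12 libraries. The changes were -0.23 in LPS against PBS (SE 0.28, adjusted p = 0.809) and -0.013 in LPS+DMA against LPS (SE 0.28, adjusted p = 0.983). Without LPS+DMA male 1 the latter was 0.34, on the other side of 0. All 4 libraries with a cerebellar signal lay at 3.13 FPKM or less, and the other 8 at 3.56 or more except LPS+DMA male 1.

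Txnrd1, the cytosolic thioredoxin reductase, and Srxn1, the sulfiredoxin that repairs overoxidized peroxiredoxins, belong to the thioredoxin branch. Txnrd1 (ENSMUSG00000020250, chr10:82669785-82733546, plus strand) was at 8.55, 7.55, 9.97 and 8.49 FPKM in PBS female 1, female 2, male 1 and male 2. It was at 9.95, 8.74, 9.76 and 11.2 FPKM in LPS and at 8.96, 8.71, 8.75 and 7.34 FPKM in LPS+DMA, in the same order. The arms overlapped, with LPS male 2 the highest and LPS+DMA male 2 the lowest library. The change was 0.18 in LPS against PBS (SE 0.11, adjusted p = 0.589) and -0.21 in LPS+DMA against LPS (SE 0.11, adjusted p = 0.248). Scaled to equal library totals, the latter was -0.38 and passed (adjusted p = 0.0411), and that scaling moved the median of all genes in this comparison by -0.12.

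Srxn1 (ENSMUSG00000032802, chr2:151947436-151953296, plus strand) was at 34.5, 33.6, 33.8 and 35.7 FPKM in PBS female 1, female 2, male 1 and male 2, a narrow range with a coefficient of variation of 2.78%. In the same order it was at 35.3, 31.3, 40.2 and 39.0 FPKM in LPS and at 37.3, 45.6, 25.1 and 30.5 FPKM in LPS+DMA. In LPS+DMA both females lay above every PBS library and both males below. The change was 0.075 in LPS against PBS (SE 0.16, adjusted p = 0.897) and -0.097 in LPS+DMA against LPS (SE 0.16, adjusted p = 0.720). By sex, the LPS+DMA against LPS change was 0.30 in females and -0.50 in males, and the test of this difference of 0.80 (SE 0.22) had an unadjusted p of 0.00460 and an adjusted p of 0.853 in limma, so the sexes were not shown to differ. No member passed the test of a sex difference in any of the 3 comparisons, where limma called 0 of all genes tested and 491 to 1110 genes had an unadjusted p under 0.05.

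Nqo1 is a quinone reductase that avoids forming reactive semiquinones, and Hmox1, heme oxygenase 1, opens heme to biliverdin, iron and carbon monoxide and is readily induced in microglia and macrophages. Nqo1 (ENSMUSG00000003849, chr8:108114857-108129838, minus strand) was at 4.85, 2.36, 4.12 and 3.64 FPKM in PBS female 1, female 2, male 1 and male 2. It was at 7.14, 2.17, 5.41 and 5.23 FPKM in LPS and at 2.64, 2.81, 2.44 and 2.82 FPKM in LPS+DMA, in the same order. LPS held both the highest library, female 1, and the lowest, female 2, and the 4 libraries with a cerebellar signal were the 4 highest. The LPS+DMA mice varied little, with a coefficient of variation of 6.74% against 27.99% in PBS and 41.5% in LPS.

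The change of Nqo1 was 0.29 in LPS against PBS (SE 0.26, adjusted p = 0.721) and -0.62 in LPS+DMA against LPS (SE 0.26, adjusted p = 0.140). Without LPS female 2 the latter was -0.91 and passed (adjusted p = 0.00877). With the forebrain minus cerebellum score as a covariate the 2 changes were -0.22 and 0.15, each with the sign turned. In the 8 libraries without a cerebellar signal, of which LPS female 2 is the single LPS library, Nqo1 ran from 2.17 to 4.12 FPKM, and in the other 4 from 4.85 to 7.14.

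**Figure D3:**
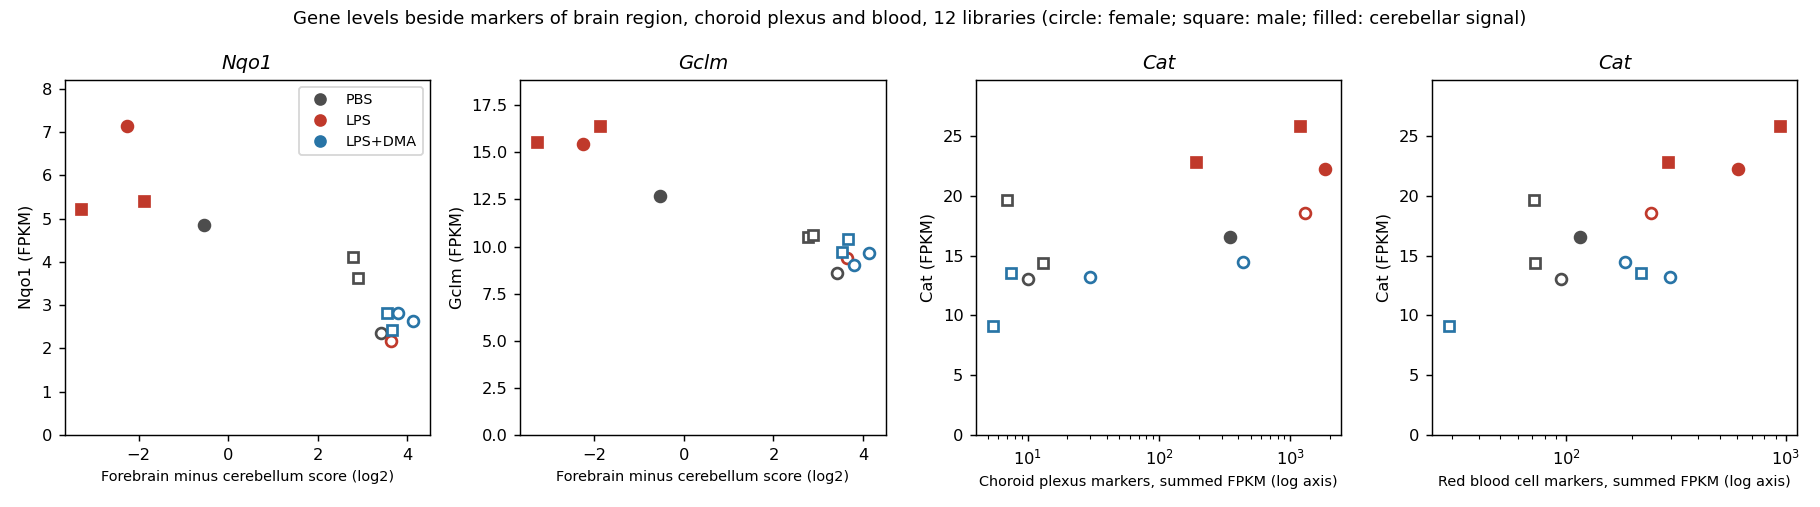
Level in FPKM (y axes from 0) of Nqo1 and Gclm against the forebrain minus cerebellum score (difference of mean log2(FPKM + 1) of 11 forebrain and 11 cerebellum markers), and of Cat against the summed FPKM of 13 choroid plexus and 7 red blood cell markers (log axes), with 1 point per library, colours for the arms, circles for females, squares for males and filled symbols for Gabra6 above 1 FPKM. The 4 filled libraries hold the 4 highest values of Gclm (12.7 to 16.4) and Nqo1 (4.85 to 7.14), and LPS female 2 lies with the libraries of high forebrain score.

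Hmox1 (ENSMUSG00000005413, chr8:75820249-75827217, plus strand) was at 1.59, 1.61, 1.69 and 2.07 FPKM in PBS female 1, female 2, male 1 and male 2. In the same order it was at 2.49, 2.07, 2.82 and 3.34 FPKM in LPS and at 2.81, 2.04, 2.84 and 1.19 FPKM in LPS+DMA. PBS male 2 and LPS female 2 were level, and the other 3 LPS libraries lay above all PBS libraries. The LPS+DMA mice spanned nearly the whole range, and male 2 was the lowest of the 12. The change was 0.42 in LPS against PBS (SE 0.19, adjusted p = 0.445), -0.22 in LPS+DMA against LPS (SE 0.19, adjusted p = 0.470) and 0.20 in LPS+DMA against PBS (SE 0.19, adjusted p = 0.690). Summed microglia markers (10 genes) stood at 119 to 146 FPKM in PBS, 187 to 241 in LPS and 93.2 to 133 in LPS+DMA, and perivascular and border macrophage markers (9 genes) ran from 3.77 to 5.15, 6.15 to 8.65 and 3.33 to 8.41 FPKM. All 10 microglia markers had changes below 0 in LPS+DMA against LPS, and 7 were called lower, beside 3.88% of all genes. None of them passed in LPS against PBS, where 5 had an unadjusted p under 0.05 in limma. Microglia markers and Hmox1 both had their highest arm mean in LPS, 203 and 2.68 FPKM, and their relation was not tested. Library by library they matched in part, and PBS female 1 had the least of both in its arm, 119 and 1.59 FPKM. LPS female 2 had the most microglia signal, 241 FPKM, and the lowest Hmox1 of its arm, and LPS+DMA male 1 had the least, 93.2 FPKM, and the highest Hmox1 of its arm.

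Sod1, the copper-zinc superoxide dismutase of the cytosol, and Sod2, the manganese enzyme of mitochondria that inflammatory signals induce in many cell types, differed little between arms. Sod1 (ENSMUSG00000022982, chr16:90017642-90023217, plus strand) averaged 35.7 ± 2.22 FPKM in the PBS mice, 38.3 ± 1.64 after LPS and 36.1 ± 8.57 with DMA added (SD, n = 4), with changes of 0.099 in LPS against PBS (SE 0.15, adjusted p = 0.851) and -0.11 in LPS+DMA against LPS (SE 0.15, adjusted p = 0.659). Sod2 (ENSMUSG00000006818, chr17:13225733-13258950, plus strand) averaged 19.5 ± 1.58, 19.6 ± 0.514 and 20.9 ± 3.46 FPKM, with changes of 0.012 (SE 0.11, adjusted p = 0.982) and 0.074 (SE 0.11, adjusted p = 0.684). The Sod2 mean differed between PBS and LPS by less than the spread within PBS. Another gene, Scaf4, overlaps Sod1 on the opposite strand at up to 7.997 FPKM, and whether reads were counted by strand is not known from the labels.

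The 2 LPS+DMA males stood apart in several members. Male 1 had the highest Sod1 of all libraries, 46.6 FPKM, and male 2 the lowest, 25.8 FPKM, while male 2 had the highest Sod2, 25.8 FPKM. The ratio of Sod1 to Sod2 was 2.40 in male 1 and 1.00 in male 2, the 2 ends of its range over the 12 libraries. Gclc and Hmox1 were high in male 1 and lowest of all in male 2, and Slc7a11 the reverse. Male 2 was the library with the widest gap between long and short genes. Of the 3 members with gene models over 6841 bases, Slc7a11 (13922 bases) and Sod2 (10008) were higher in male 2 than their means over the 12 libraries. Txnrd1 (7086) was lower than its mean, as were all the shorter members. The part of gene length in these values was not tested. Against male 1, Slc7a11 and Sod2 were again higher in male 2 and Txnrd1 lower. Of the others, Gclm (6291 bases), Sod1 (3970), Gclc (3766) and Hmox1 (1751) were lower in male 2 than in male 1. Srxn1 (2820), Cat (2613) and Nqo1 (1553) were higher in male 2 than in male 1. Of the changes from LPS to LPS+DMA in Slc7a11, Gclc, Hmox1, Sod1 and Sod2, leaving out male 2 turned the sign of Sod1 (to 0.052), Sod2 (to -0.014) and Gclc (to 0.13), none of which had passed.

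Other genes of the same system put the members in context. Of 82 genes in 5 lists (NRF2 regulators, other NRF2 targets, the glutathione system, the thioredoxin and peroxiredoxin system, and partners of superoxide and heme enzymes), 79 were tested. In LPS against PBS 0 passed, by limma or by voom, with 61 changes above 0 and 18 below. There 13 of the 79 had an unadjusted p under 0.05 in limma, as did 11.0% of all genes. In LPS+DMA against LPS 17 passed, 4 higher and 13 lower, beside 5.79% higher and 3.88% lower of all genes. Marker lists of cell types and regions differed in the same comparison. Of 11 forebrain markers 9 were called higher, and of 10 microglia markers 7 were called lower. All 10 oligodendrocyte markers had changes below 0, with 1 called. Summed oligodendrocyte markers ran from 1215 to 2232 FPKM in LPS and from 528 to 1155 in LPS+DMA, and summed astrocyte markers from 738 to 1110 and from 588 to 698 FPKM. The 10 astrocyte markers did not move as a set: 6 had changes below 0, with 3 called, and 4 above 0, with 1 called. The part of these markers in the pathway counts was not tested beyond the fits with covariates. The median change of the 79 pathway genes was -0.17 against 0.010 over all genes. With scaling to equal library totals 33 of them passed, 2 higher and 31 lower. Among all genes tested that scaling gave 588 higher and 2284 lower calls, against 1133 and 759 in the main fit. It also moved the median change of all genes by -0.12. The shares of 5.79% and 3.88% belong to the main fit and are no background for these 33 genes. In LPS+DMA against PBS 0 passed in limma and in voom, and 10 of the 79 had an unadjusted p under 0.05 in limma, as did 11.4% of all genes.

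Nfe2l2, the gene of NRF2 itself, was at 4.001, 4.11, 3.64 and 4.38 FPKM in PBS female 1, female 2, male 1 and male 2. In the same order it was at 6.02, 5.26, 6.03 and 5.55 FPKM in LPS and at 4.35, 4.41, 3.61 and 3.99 FPKM in LPS+DMA. All 4 LPS libraries, LPS female 2 included, lay above all 8 others. It fell in LPS+DMA against LPS by 0.40 on the log2 scale (SE 0.10, adjusted p = 0.0340), and its change in LPS against PBS was 0.42 (SE 0.10, adjusted p = 0.257). The call was lost with the forebrain minus cerebellum covariate (-0.33, adjusted p = 0.626) and with the choroid plexus and red blood cell covariates (-0.31, adjusted p = 0.977). No gene of all those tested passed in either of these fits, so the loss is not particular to Nfe2l2. Gsk3b, a kinase that promotes NRF2 degradation, rose from 22.3 ± 1.76 FPKM in LPS to 32.1 ± 4.53 in LPS+DMA (change 0.50, adjusted p = 0.0218). Of the 13 regulators these were the 2 that passed, beside 9.67% of all genes.

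Among other NRF2 targets, 6 of 21 tested genes were called lower and 1 higher in LPS+DMA against LPS. Of all genes 3.88% passed as lower and 5.79% as higher. Changes were below 0 for 17 of the 21 and above 0 for 4, beside 9541 and 10005 of all genes tested. Gsta4, a glutathione transferase that detoxifies lipid aldehydes, fell from 37.0 ± 5.06 to 18.5 ± 1.01 FPKM (change -0.95, adjusted p = 0.00626), and all 4 LPS+DMA libraries (17.2 to 19.7) also lay below all PBS libraries (26.7 to 32.9). Idh1, a cytosolic source of NADPH, fell from 16.4 ± 2.74 to 10.6 ± 1.08 FPKM (-0.57, adjusted p = 0.0254). Cbr3, a carbonyl reductase, rose from 2.93 ± 1.22 to 7.70 ± 3.15 FPKM (1.11, adjusted p = 0.0293) with overlapping arms. In LPS against PBS the smallest p of this list belonged to Fth1, the ferritin heavy chain, at 758 ± 133 against 450.4 ± 85.1 FPKM (0.75, adjusted p = 0.179), and its arms did not overlap.

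In the glutathione system 3 of 21 tested genes were called lower and 1 higher in LPS+DMA against LPS, with 17 changes below 0 and 4 above. Beside this list and those that follow, 3.88% of all genes passed as lower and 5.79% as higher. Slc1a1, a neuronal glutamate and cysteine transporter, rose from 8.75 ± 2.24 to 15.6 ± 1.36 FPKM (0.79, adjusted p = 0.0244). The glutaredoxin genes Glrx5 (12.9 ± 1.76 to 8.94 ± 0.780 FPKM, -0.48, adjusted p = 0.0256) and Glrx3 (19.1 ± 2.55 to 13.8 ± 1.23 FPKM, -0.43, adjusted p = 0.0330) fell. Of 19 thioredoxin and peroxiredoxin genes 2 were called lower and 1 higher, with 14 changes below 0 and 5 above. The peroxiredoxin genes Prdx5 (89.3 ± 10.96 to 60.8 ± 6.81 FPKM, -0.55, adjusted p = 0.0265) and Prdx1 (56.3 ± 3.24 to 40.4 ± 7.05 FPKM, -0.48, adjusted p = 0.0499) fell, and Sesn3, a stress-induced sestrin, rose from 11.4 ± 1.79 to 18.3 ± 4.01 FPKM (0.63, adjusted p = 0.0317). All 5 partner genes had changes below 0, and 1 was called. This was Blvra, the reductase that turns biliverdin from heme oxygenase into bilirubin, from 8.73 ± 0.155 to 5.79 ± 0.614 FPKM (-0.52, adjusted p = 0.0273).

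All 17 genes kept their direction in each of the 24 alternative fits. With the forebrain minus cerebellum covariate or with the choroid plexus and red blood cell covariates 0 of the 17 passed. No gene of all those tested passed in either of these fits, so they say little about the 17 in particular. Without the 4 libraries with a cerebellar signal the LPS arm is 1 library and 5 of all genes passed, so that fit says little about the calls. Its changes were -0.73 for Gsta4, -0.25 for Nfe2l2, 0.28 for Gsk3b and -0.52 for Blvra. Leaving out LPS female 1, LPS male 1 or LPS male 2 left 1 of the 17 past the threshold in each case, and leaving out LPS female 2 left all 17. Calls among all genes were also fewest without LPS male 1 and most without LPS female 2, as given in the last section. The counts of these 2 fits are thus not particular to the 17. In LPS+DMA against PBS, where none passed, the smallest p of each list belonged to Gsta4 (-0.62, adjusted p = 0.173), Gsk3b (0.44, adjusted p = 0.320), Chac1, which degrades glutathione (-0.64, adjusted p = 0.324), Sesn3 (0.39, adjusted p = 0.394) and Blvra (-0.18, adjusted p = 0.570). In LPS against PBS the remaining lists were led by Glrx5 (0.42, adjusted p = 0.280), the extracellular superoxide dismutase gene Sod3 (0.50, adjusted p = 0.321) and Prdx5 (0.30, adjusted p = 0.403).

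**Figure D4:**
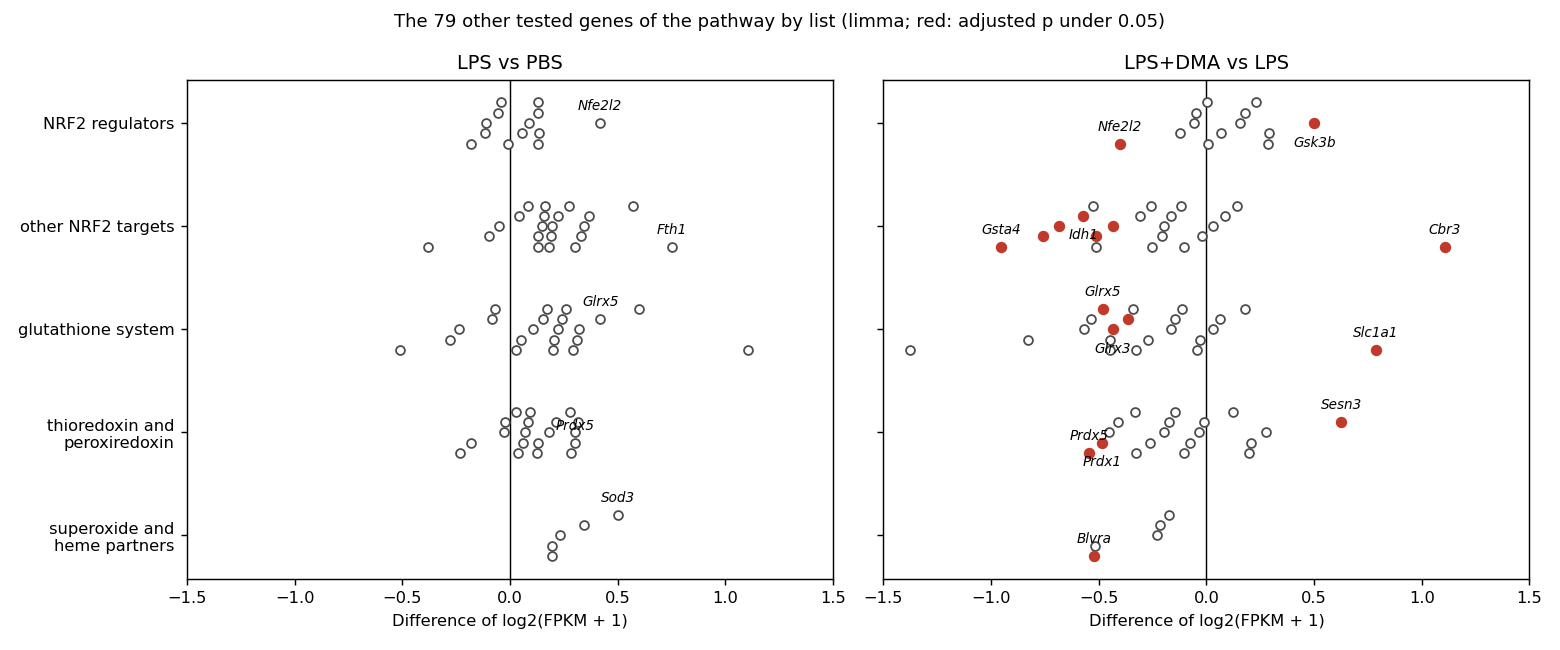
Difference of log2(FPKM + 1) (x axis) of the 79 other tested pathway genes, 1 point per gene, by list, for LPS against PBS and LPS+DMA against LPS, with red for an adjusted p under 0.05 in limma and names for the genes chosen by rule. No gene is red in LPS against PBS, and in LPS+DMA against LPS 13 red genes lie below 0 and 4 above, from Gsta4 at -0.95 to Cbr3 at 1.11.

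The coding genes whose log2(FPKM + 1) followed each member most closely over the 12 libraries differed between members. These likenesses are descriptions over 12 libraries that differ in brain region and depth. For Cat they were Gng11 (Pearson's r 0.978), Slc25a30 (0.974) and Krcc1 (0.971). For Gclm they were Sh3bgr (0.972), Slc39a13 (0.970) and Pax2 (0.968), and for Nqo1 Rec8 (0.963), Slc20a2 (0.953) and Fbxo3 (0.943). Pax2, a developmental transcription factor, reached 1.92 FPKM at most. For Gclc the closest gene was Imp3 (0.944), for Sod1 Srp14 (0.960), for Sod2 Paip1 (0.928), for Srxn1 Cisd3 (0.951), for Hmox1 Them6 (0.924) and for Txnrd1 Rnase1 (0.919). No gene was among the 3 closest of more than 1 member.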

How the data were processed

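Gene expression was measured by RNA sequencing of 12 brains, 1 library per mouse. The deposited table holds FPKM values per gene made by the authors, with gene coordinates in GRCm39. The submitters' processing notes name HISAT2 2.2.1, STAR, featureCounts 2.0.6, fastp, edgeR 4.0.16, GATK and DESeq2 1.42.0 with no role or order, and no source used here says how FPKM were scaled. In each library the FPKM values up to 1000 reads were whole multiples (100% within 0.1 read) of what 1 read is worth, which gave the depth of 27.5 to 41.4 megareads. No library duplicated another. The number of reads limits precision, and recovered reads cover counting error only.

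Genes with at least 0.5 FPKM in at least 2 libraries were tested with limma 3.58.1 in R 4.3.3 on log2(FPKM + 1), with arm and sex as terms, a robust mean trend and Benjamini-Hochberg adjustment over 19571 genes. The sex difference was tested with a mean per arm and sex. The scripts were tested on simulated data. Voom on recovered reads, other filters, pseudocounts and scalings, composition covariates and leaving out each library were alternatives. The comparison of long and short genes was chosen after seeing the data. The members and lists were chosen with earlier results of these data known. All 10 members were named, and of each other pathway list the 3 called genes with the smallest p in a comparison, or the 1 with the smallest p where none was called. For each member the 3 coding genes with the highest Pearson's r were found. Some of these are not reported here.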

Additional observations from a re-analysis of the deposited data

Results flagged for a closer look

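In a group of 4 libraries, 1 library stood apart from the other 3 in 2 of the 30 groups examined (10 genes in 3 arms), and chance alone marks about 1 in 20 groups. Gclm in LPS female 2 was 9.40 FPKM, where the other LPS libraries held 15.4 to 16.4 FPKM. This is the LPS library without a cerebellar signal and with 0.0389% ribosomal RNA reads. Txnrd1 in LPS+DMA male 2 was 7.34 FPKM, where the other LPS+DMA libraries held 8.71 to 8.96 FPKM. In that library long genes as a group lay higher, and Txnrd1, with 7086 bases, is a long gene that lay lower. The part of the library features in the Gclm value was not tested.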

How the results depend on the processing

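Of 240 changes recomputed per comparison (10 members, 24 alternatives), 220 kept their direction and side of the threshold in LPS against PBS, 206 in LPS+DMA against LPS and 215 in LPS+DMA against PBS, and 19, 21 and 25 turned sign. In LPS+DMA against LPS, where 1 member, 17 other pathway genes and 1892 of all genes were called, the counts were 0, 1 and 83 without a filter, 3, 33 and 2872 with equal library totals, and 0, 0 and 5 both with only the compared arms and without the 4 libraries with a cerebellar signal. With the forebrain minus cerebellum covariate and with the choroid plexus and red blood cell covariates all 3 counts were 0. Equal library totals gave 588 higher and 2284 lower calls against 1133 and 759. Leaving out each library gave 0 to 3 members, 1 to 24 pathway genes and 7 to 3465 of all genes, the highest without LPS female 2 and the 7 without LPS male 1. In LPS against PBS it gave 0 to 1 member, 0 to 5 pathway genes and 0 to 672 of all genes, the highest again without LPS female 2, and in LPS+DMA against PBS 0 to 6 of all genes. All genes called in LPS against PBS (2) became 1 with a pseudocount of 0.1, without a filter and in voom, 4 with only the compared arms and without the libraries with a cerebellar signal, and 0 with either covariate set. Those called in LPS+DMA against PBS (2) became 0 without a filter, without the sex term, with only the compared arms, in voom, with the choroid plexus and red blood cell covariates and without the libraries with a cerebellar signal, and 1 with the forebrain minus cerebellum covariate. The cause was not tested.

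Titles share a sex and number across arms, but same-numbered libraries did not deviate together: 2 of 12 pairs had r over 0.1 (range -0.30 to 0.41, against -0.56 to 0.39 for other pairs). With the numbers as a replicate block, members called in LPS+DMA against LPS became 2 (Cat and Gclm), and all genes called became 1 in LPS against PBS and 1 in LPS+DMA against PBS.

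Changes that turned sign were as follows, none of them past the threshold. With the forebrain minus cerebellum covariate, LPS against PBS was -0.22 for Nqo1, -0.034 for Gclc and -0.037 for Srxn1, LPS+DMA against LPS was 0.15 for Nqo1, 0.050 for Gclc and 0.076 for Srxn1, and LPS+DMA against PBS was 0.017 for Gclc, 0.058 for Gclm, 0.015 for Txnrd1 and 0.039 for Srxn1. With the choroid plexus and red blood cell covariates, LPS against PBS was -0.48 for Nqo1, -0.034 for Gclm, -0.23 for Srxn1, -0.13 for Sod2 and -0.11 for Cat, LPS+DMA against LPS was 0.25 for Slc7a11 and 0.036 for Srxn1, and LPS+DMA against PBS was 0.12 for Gclc and 0.11 for Sod1. Without the libraries with a cerebellar signal, where the LPS arm is LPS female 2 alone and is assumed to vary like the other arms, LPS against PBS was -0.31 for Nqo1, -0.0046 for Gclc and -0.34 for Srxn1, LPS+DMA against LPS was 0.074 for Hmox1, 0.12 for Nqo1, 0.017 for Gclc and 0.27 for Srxn1, and LPS+DMA against PBS was 0.012 for Gclc and 0.0027 for Gclm. In voom Gclc was 0.0018 in LPS+DMA against LPS and 0.0032 against PBS, and with equal library totals Sod2 was -0.11 and -0.055. Leaving out each library, LPS against PBS ran from -0.031 to 0.045 for Gclc and -0.022 to 0.041 for Sod2. LPS+DMA against LPS ran from -0.14 to 0.13 for Gclc, -0.26 to 0.34 for Slc7a11, -0.26 to 0.052 for Sod1, -0.014 to 0.13 for Sod2 and -0.24 to 0.041 for Srxn1. LPS+DMA against PBS ran from -0.14 to 0.13 for Gclc, -0.18 to 0.016 for Gclm, -0.48 to 0.11 for Slc7a11, -0.16 to 0.15 for Sod1, -0.0029 to 0.14 for Sod2, -0.16 to 0.12 for Srxn1 and -0.078 to 0.050 for Txnrd1.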
